A study of Rattus norvegicus with 8 samples.

Results

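The ESC-specific genes of a rat germ cell induction series are described here, that is, the genes whose 2 embryonic stem cell (ESC) libraries both lay above, or both below, all 6 libraries of the 3 states made from these cells. RNA sequencing covered 4 states with 2 libraries each, all from the rat strain Crlj:WI and listed as wild type, although the germ cell-like cells carried a tdTomato reporter joined to Nanos3. The ESC were grown on mouse embryonic fibroblast feeders in N2B27 medium with "2i", the MEK inhibitor PD0325901 at 1 µM and the GSK3 inhibitor CHIR99021 at 3 µM, and with rat LIF at 1000 U/ml. Epiblast-like cells (EpiLC) were aggregates of ESC after 60 h with activin A at 20 ng/ml, bFGF at 12 ng/ml and 1% KSR. Primordial germ cell-like cells of day 3 (PGCLC_d3) came from EpiLC aggregates moved to BMP4 at 500 ng/ml, SCF at 100 ng/ml, EGF at 50 ng/ml and rat LIF at 1000 U/ml, and were sorted as reporter-positive. For the last state (PGCLC_d3ag3), 5000 such cells were joined in N2B27 medium with 5% KSR by 50000 somatic cells from female E15.5 gonads, from which germ cells positive for c-KIT had been taken out. Reporter-positive cells were sorted at day 3 of aggregation. Feeders, 2i and growth without aggregation set ESC apart from every other state, and the labels mention no sort of the ESC, so the effects of state, medium, feeders and sorting cannot be told apart. No label says that the 2 libraries of a state came from separate cultures, so the p-values measure the spread between these libraries, which may be technical.

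Embryonic stem cells kept in 2i and LIF are held in the naive state, which resembles the inner cell mass before implantation. The MEK inhibitor blocks the signal that passes from FGF receptors to ERK and drives cells out of this state, the GSK3 inhibitor stabilises beta-catenin and relieves repression by TCF7L1, and LIF acts through its receptor and JAK kinases on STAT3. A set of transcription factors that includes NANOG, ESRRB, KLF4, TBX3 and TFCP2L1 keeps the naive state, and most of these genes are shut down when cells pass to a formative, epiblast-like state. Some return in primordial germ cells, which use parts of the same network.

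Of 22228 named genes, 2790 were ESC-high and 3659 ESC-low, 6449 in all. The gap of a gene is the distance between the ESC libraries and the nearest other library on the deposited log2(TPM+1) scale, where TPM is a transcript level scaled by gene length and by library. Of the 13571 genes with at least 1 TPM in at least 2 libraries, 2395 ESC-high genes (17.6%) and 3271 ESC-low genes (24.1%) remained, and at a gap of at least 1 they were 586 (4.32%) and 432 (3.18%). A gap of at least 2 was reached by 214 ESC-high and 97 ESC-low genes, and one of at least 4 by 41 and 5. Which side held more genes depended on the processing. After median-of-ratios rescaling, which divides each library by its median ratio to the others, 2972 tested genes were ESC-high and 2748 ESC-low. With a pseudocount of 0.1, 702 ESC-high and 793 ESC-low genes had a gap of at least 1. Just inside the rule, at a gap of 0.001, stood Fgf13 and Timm8b as ESC-high and Asxl1 and Bnip2 as ESC-low. Just outside, at a gap of 0, were Leng9, Rp9, Abcg3l1 and Abhd12b. Among the genes with a gap of at least 1, the median level of ESC-high genes was 28.8 TPM in ESC and 2.81 TPM elsewhere, and that of ESC-low genes was 1.38 TPM in ESC and 20.8 TPM elsewhere. Only 3 of these 586 ESC-high genes were listed at 0 in all 6 other libraries, and for 9 of the 432 ESC-low genes both ESC values were 0.

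A second measure allowed for the spread between replicates. A gene was called higher or lower in ESC when all 3 differences from the other states had the same sign and the largest of their limma p-values, adjusted by Benjamini-Hochberg over the 13571 genes, was under 0.05. It called 1722 genes higher (12.69%) and 2098 lower (15.46%), so 45.1% of the calls were higher. This balance depended on the scaling, since the median of all genes was -0.25 for ESC minus PGCLC_d3. After median-of-ratios rescaling, which brought that median to 0.003, 2126 genes were called higher and 1712 lower (55.4% higher), and after quantile normalization 1956 and 1806 (52.0% higher). The rule and the call use the same libraries, so for genes chosen by their gap only values are given.

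The labelled cell type was checked against its markers. The summed level of 8 ESC markers was 2787 to 2793 TPM in ESC and 371 to 618 TPM in the other 6 libraries, and none was at 0 in ESC. Fibroblast markers summed to 21.4 to 27.2 TPM in ESC, with Thy1 listed at 0. The sums were 43.9 to 82.8 TPM in EpiLC, 3.12 to 6.34 TPM in PGCLC_d3 and 12.0 to 15.2 TPM in PGCLC_d3ag3. ESC thus lay below EpiLC and above both PGCLC states, and no feeders were used for any of these other states. Endoderm markers summed to 1.33 to 1.49 TPM and gonadal somatic markers to 0.153 to 0.164 TPM in ESC, with Wt1, Foxl2 and Lhx9 at 0. Trophoblast markers summed to 143 to 162 TPM in ESC against 5.52 to 85.7 TPM elsewhere. Cdx2 made up most of that sum, and Elf5, Hand1 and Gcm1 were listed at 0 in ESC. Markers of blood and endothelium summed to 103 to 105 TPM in ESC and 19.4 to 139 TPM elsewhere, with Ptprc at 0 in ESC.

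The widest gap belonged to Pramel6, of the PRAME gene family, at 619 and 667 TPM in ESC, 0.501 and 0.303 in EpiLC, 0.344 and 0.057 in PGCLC_d3 and 0 and 0 in PGCLC_d3ag3. The ESC libraries stood 8.69 log2 units above the nearest other library, but related copies in this family could split or share its reads, so the level is uncertain. Tbx3, a T-box transcription factor of the naive network, followed at 336 and 349.7 TPM in ESC, 0.5 and 0.344 in EpiLC, 3.17 and 3.29 in PGCLC_d3 and 0 and 0.0563 in PGCLC_d3ag3. Of the other states, PGCLC_d3 was the highest and PGCLC_d3ag3 the lowest. Foxe1, a forkhead factor best known from thyroid development, stood at 184 and 196 TPM in ESC, 1.1 and 1.37 in EpiLC, 0.13 and 0.149 in PGCLC_d3 and 0 and 0.036 in PGCLC_d3ag3. EpiLC was the highest of the 3 other states. Both PGCLC states were at most 0.149 TPM, so near the floor that their order is uncertain. Calcoco2, which encodes the autophagy receptor NDP52, was at 2016 and 2256 TPM in ESC, 26.9 and 23.5 in EpiLC, 2.55 and 0.683 in PGCLC_d3 and 1.97 and 2.2 in PGCLC_d3ag3. Gpx2, a glutathione peroxidase of epithelia, was at 2298 and 2379 TPM in ESC, 39.1 and 38.8 in EpiLC, 76.0 and 63.9 in PGCLC_d3 and 4.37 and 3.44 in PGCLC_d3ag3. These 2 had the highest ESC levels among the 20 genes with the widest gaps.

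Ooep, a member of the subcortical maternal complex of the oocyte, reached 970.5 and 948 TPM in ESC, 1.96 and 0.819 in EpiLC, 6.38 and 6.14 in PGCLC_d3 and 8.31 and 12.2 in PGCLC_d3ag3. Khdc3, of the same complex, was at 80.3 and 78.5 TPM in ESC, 5.92 and 4.00 in EpiLC, 0 and 0 in PGCLC_d3 and 0.345 and 0.567 in PGCLC_d3ag3. Dppa5, a KH-domain gene related to both, was at 204 and 189 TPM in ESC, 3.43 and 2.88 in EpiLC, 0.0629 and 0.218 in PGCLC_d3 and 1.53 and 1.26 in PGCLC_d3ag3. All 3 were high in both ESC libraries and low in each later state, with PGCLC_d3ag3 the nearest state for Ooep and EpiLC for Khdc3 and Dppa5. Of 8 tested maternal-effect and cleavage-stage genes, 3 were called higher (37.5%) and 2 lower (25.0%), against 12.69% and 15.46% of all tested genes. The higher calls were Ooep, Khdc3 and Pramel6, and Pramel6 met the filter for a test through its ESC values alone. The lower calls were the corepressor gene Tle6 (1.02 and 0.922 TPM in ESC, 1.81 to 10.7 elsewhere) and Zbed3 (15.2 and 15.7 and 19.9 to 64.2). The Tle6 call was lost without EpiLC replicate 2 (limma, adjusted p = 0.0573) and after quantile normalization.

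Tdh, threonine dehydrogenase, which feeds one-carbon metabolism in mouse stem cells, was at 679 and 687 TPM in ESC, 13.7 and 10.8 in EpiLC, 2.94 and 2.65 in PGCLC_d3 and 10.6 and 9.71 in PGCLC_d3ag3. Lama1, a laminin chain of the basement membrane, was at 89.6 and 123 TPM in ESC, 0.58 and 0.652 in EpiLC, 0.878 and 0.666 in PGCLC_d3 and 0.694 and 0.659 in PGCLC_d3ag3. Its ESC libraries differed from each other, yet both stood far above the other 6. Skint8 was listed at 82.9 and 68.4 TPM in ESC and at 0 in all 6 other libraries, so no fold is given. Dusp26, a dual-specificity phosphatase, was at 611 and 594 TPM in ESC against 0.364 to 16.6 elsewhere. Mitf and Tfeb, related helix-loop-helix factors that control lysosomal and pigment genes, were at 66.9 and 77.5 and at 70.3 and 69.9 TPM in ESC, against 0.374 to 1.21 and 0.846 to 3.89 in the other libraries. Tfe3, of the same family, did not follow them, with 42.9 and 43.2 TPM in ESC, 104 and 99.0 in EpiLC, 23.9 and 24.9 in PGCLC_d3 and 16.9 and 15.2 in PGCLC_d3ag3. Tfeb and Tfe3 were named after their values were seen. The remaining genes among the 20 with the widest gaps were Zfp93, Hoxa7, Hoxa11, Hoxa9, Stmn2 (a microtubule regulator), Pigz (a mannosyltransferase of GPI anchors), Nipal1 and Fam20c (a kinase of secreted proteins), with gaps of 4.85 to 5.93.

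**Figure D1:**
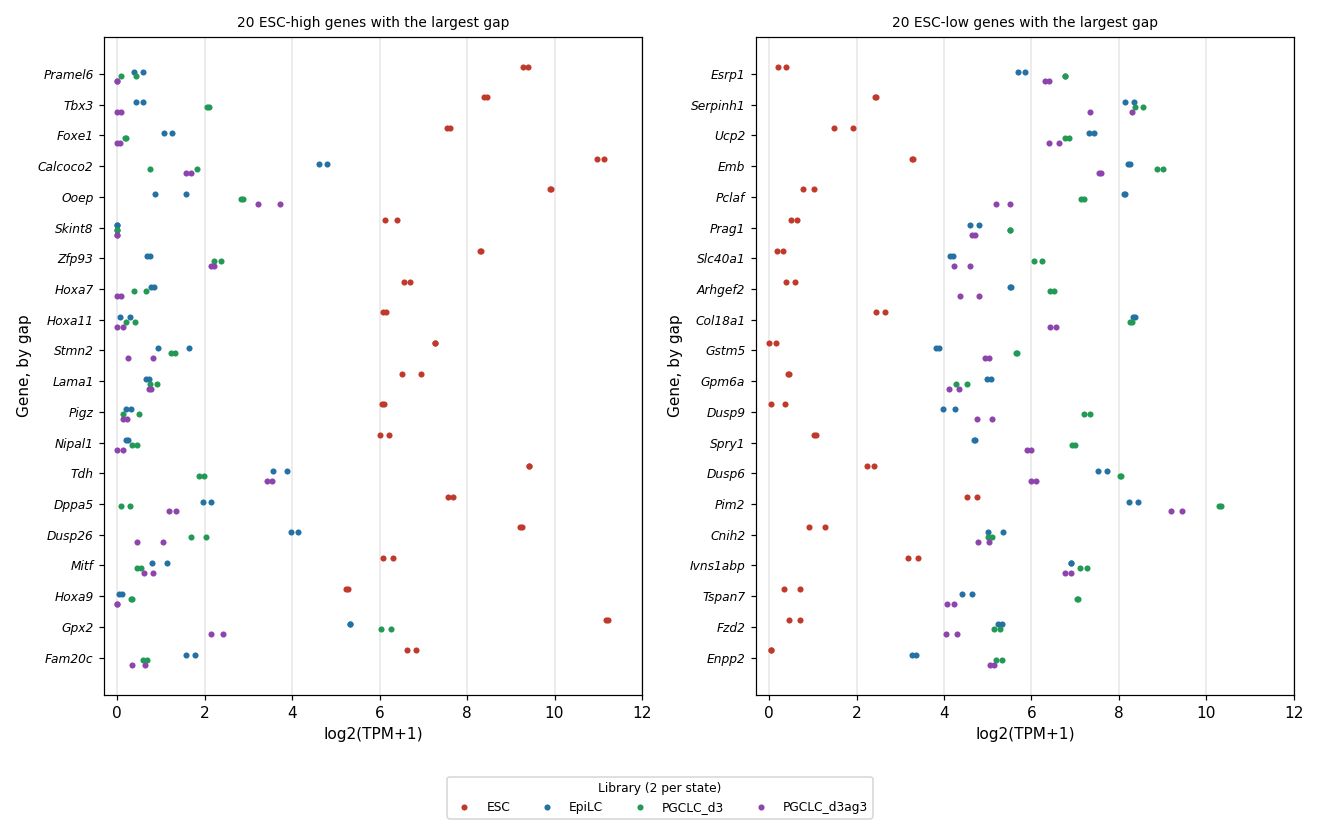
Levels in log2(TPM+1) on the horizontal axis of the 20 ESC-high genes (left) and the 20 ESC-low genes (right) with the largest gap, ordered by gap from the top, with 1 point per library coloured by state. ESC points lie right of all others on the left and left of all others on the right, with gaps from 4.85 to 8.69 and from 3.23 to 5.33.

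Among the ESC-low genes, Esrp1, an epithelial splicing regulator, had the widest gap at 0.158 and 0.297 TPM in ESC, 51.1 and 57.1 in EpiLC, 109 and 108 in PGCLC_d3 and 78.0 and 83.0 in PGCLC_d3ag3. Serpinh1, the collagen chaperone HSP47, was at 4.47 and 4.33 TPM in ESC, 325 and 279.5 in EpiLC, 329 and 372 in PGCLC_d3 and 314 and 160.5 in PGCLC_d3ag3. Col18a1, a basement membrane collagen, was at 4.42 and 5.32 TPM in ESC, 319 and 332 in EpiLC, 303 and 312 in PGCLC_d3 and 84.9 and 93.2 in PGCLC_d3ag3. Ucp2, a mitochondrial carrier, stood at 2.77 and 1.8 TPM in ESC against 83.7 to 171 elsewhere, and Emb, a chaperone of monocarboxylate transporters, at 8.73 and 8.67 against 186 to 516. Pclaf, a PCNA-associated factor, was at 0.72 and 1.05 TPM in ESC, 279 and 279.5 in EpiLC, 139.5 and 147 in PGCLC_d3 and 44.4 and 35.4 in PGCLC_d3ag3. Slc40a1, the iron exporter ferroportin, was at 0.139 and 0.255 TPM in ESC and 16.6 to 74.7 elsewhere, and Arhgef2, a microtubule-bound guanine nucleotide exchange factor, at 0.504 and 0.312 and 19.7 to 91.2. For these genes the later states were alike in lying high, though not in order: Pclaf was highest in EpiLC, and Esrp1 and Emb in PGCLC_d3. Dusp9, Spry1 and Dusp6, inhibitors of ERK signalling, and Pim2, a survival kinase, also fell among the 20 widest ESC-low gaps. So did Prag1, Gstm5 (a glutathione transferase), Gpm6a, Cnih2, Ivns1abp, Tspan7, Fzd2 (a WNT receptor) and Enpp2 (autotaxin), with gaps of 3.23 to 3.97.

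Core and naive pluripotency factors were mostly ESC-high: of 21 tested, 13 were called higher and 1 lower, against 12.69% and 15.46% of all tested genes. The counts were the same after both rescalings. The list's median difference was 3.14 from EpiLC, 2.48 from PGCLC_d3 and 1.98 from PGCLC_d3ag3 in log2(TPM+1), where all tested genes had -0.04, -0.25 and -0.09. Klf2 had the highest level of the list, at 1974 and 1957 TPM in ESC, 84.6 and 96.1 in EpiLC, 29.8 and 36.3 in PGCLC_d3 and 119.8 and 147 in PGCLC_d3ag3. Klf4, at 47.5 and 46.8 TPM in ESC, 1.13 and 1.45 in EpiLC, 2.31 and 2.34 in PGCLC_d3 and 1.38 and 2.45 in PGCLC_d3ag3, stayed low in all 3 later states. Nanog, the homeobox factor at the centre of the network, was at 933 and 912 TPM in ESC, 5.55 and 4.24 in EpiLC, 148 and 169 in PGCLC_d3 and 142 and 157 in PGCLC_d3ag3. Esrrb, an orphan nuclear receptor, was at 111 and 125 TPM in ESC, 0.968 and 0.527 in EpiLC, 20.5 and 20.1 in PGCLC_d3 and 13.6 and 14.7 in PGCLC_d3ag3. Both were lowest in EpiLC and partly raised in the 2 PGCLC states, still below ESC by 2.62 (SE 0.105) for Nanog and 2.97 (SE 0.13) for Esrrb against PGCLC_d3ag3.

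Other members took various paths after ESC. Zfp42, which encodes REX1, was at 614 and 584 TPM in ESC, 84.5 and 74.0 in EpiLC, 3.67 and 4.48 in PGCLC_d3 and 9.42 and 7.74 in PGCLC_d3ag3. Tfcp2l1 was at 23.4 and 31.9 TPM in ESC, 4.05 and 3.75 in EpiLC, 0.275 and 0.141 in PGCLC_d3 and 0.846 and 0.935 in PGCLC_d3ag3, so their nearest state was EpiLC. Zfp57, which protects imprints from demethylation, was at 79.6 and 78.0 TPM in ESC and 0.689 to 12.3 elsewhere, lowest in PGCLC_d3ag3. Pou5f1, which encodes OCT4, was separated by a gap of 0.83, with 517 and 516 TPM in ESC, 289.8 and 265 in EpiLC, 181 and 191 in PGCLC_d3 and 127 and 133 in PGCLC_d3ag3. Gbx2 was called higher at 138 and 149 TPM in ESC, 7.1 and 5.41 in EpiLC, 110.4 and 113 in PGCLC_d3 and 72.7 and 65.4 in PGCLC_d3ag3, but the call was lost in 4 of 8 fits that each left out 1 library, those without either ESC or either PGCLC_d3 replicate (limma, adjusted p of 0.00836 to 0.193 over the fits). Tcl1a, an AKT coactivator, was at 282 and 262 TPM in ESC, 159 and 158 in PGCLC_d3ag3, 4.9 and 3.02 in EpiLC and 8.93 and 8.41 in PGCLC_d3.

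The other 7 members were not called. Sox2 (211 and 223 TPM in ESC, 26.5 and 21.2 in EpiLC, 217 and 228 in PGCLC_d3 and 195 and 182 in PGCLC_d3ag3), Klf5 (42.3 and 46.2 TPM in ESC, 11.0 and 7.66 in EpiLC, 32.5 and 34.5 in PGCLC_d3 and 41.5 and 44.4 in PGCLC_d3ag3) and Sall4 (235 and 223 TPM in ESC, 159 and 185 in EpiLC, 396 and 384 in PGCLC_d3 and 224 and 239.7 in PGCLC_d3ag3) overlapped with at least 1 later state. Prdm14, which represses DNA methyltransferases, and Nr5a2, a nuclear receptor, were higher in PGCLC_d3, at 88.7 and 83.4 and 31.6 and 31.2 TPM, than in ESC, at 16.3 and 17.5 and 2.96 and 3.01 TPM. Nr0b1, a target of the naive network in the mouse, had 0 in ESC (both libraries) and 29.0 and 31.6 TPM in PGCLC_d3. Fbxo15, a marker of mouse stem cells, was under 1 TPM in ESC at 0.925 and 0.826 and reached 5.13 and 5.11 in PGCLC_d3ag3. Utf1, a chromatin factor, was the called exception on the low side, at 899 and 834 TPM in ESC, 1865 and 1813 in EpiLC, 1432 and 1504 in PGCLC_d3 and 1430 and 1490 in PGCLC_d3ag3 (limma, adjusted p = 3.54e-06).

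HOX genes pattern the body axis and are usually silent in pluripotent cells, and CDX genes encode caudal factors upstream of them. Of 15 tested HOX and CDX genes, 13 were called higher in ESC and 0 lower, all 13 with a gap of at least 1, where 4.32% of all tested genes reached that gap. The counts were the same after both rescalings and in each fit that left out 1 library. At an unadjusted limma p under 0.05, 0 of the 15 were lower as well. However, Hoxa2, Hoxa5, Hoxa6, Hoxa7, Hoxa9, Hoxa11, Hoxa13 and Hoxb13 were under 1 TPM in every library but those of ESC. They met the filter for a test through their ESC values alone. The share called higher was therefore in part set by the filter and is a description only. Hoxa7 was at 102 and 92.4 TPM in ESC, 0.792 and 0.703 in EpiLC, 0.299 and 0.577 in PGCLC_d3 and 0 and 0.0556 in PGCLC_d3ag3. Hoxa11 was at 66.7 and 69.5 TPM in ESC, 0.0454 and 0.213 in EpiLC, 0.323 and 0.14 in PGCLC_d3 and 0 and 0.0897 in PGCLC_d3ag3. These were among the highest HOX levels in ESC. Hoxa9 was at 36.6 and 37.8 TPM in ESC, 0.021 and 0.0807 in EpiLC, 0.238 and 0.254 in PGCLC_d3 and 0 and 0 in PGCLC_d3ag3. Hoxa2, Hoxa5, Hoxa6 and Hoxa13 were low but separated, at 1.35 and 1.61, 1.43 and 1.97, 1.47 and 1.68 and 2.54 and 2.92 TPM in ESC, and none of these exceeded 0.224 TPM in any other library. Levels were uneven along the cluster, since Hoxa6 was far below its neighbour Hoxa7.

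Of the other clusters, Hoxd8 (12.0 and 9.92 TPM in ESC, 1.27 and 0.834 in EpiLC, 0.733 and 0.399 in PGCLC_d3 and 0.889 and 1.05 in PGCLC_d3ag3), Hoxd9 (9.92 and 8.79 TPM in ESC, 0.449 and 0.218 in EpiLC, 1.04 and 1.09 in PGCLC_d3 and 0 and 0.165 in PGCLC_d3ag3) and Hoxb13 (1.6 and 1.5 in ESC, listed at 0 in the 6 others) were called. Hoxb1 reached 0.851 and 0.888 TPM in ESC, below PGCLC_d3ag3 at 2.02 and 1.48, and 21 of the 36 listed HOX and CDX genes in the table did not reach the level needed for a test. Cdx2 was at 116 and 135 TPM in ESC, 0.0504 and 0.235 in EpiLC, 28.1 and 18.6 in PGCLC_d3 and 1.48 and 1.21 in PGCLC_d3ag3. Cdx1 was at 37.0 and 34.2 TPM in ESC, 0 and 0.0592 in EpiLC, 6.22 and 4.72 in PGCLC_d3 and 1.57 and 1.48 in PGCLC_d3ag3. Both CDX genes had PGCLC_d3 as their nearest state. Cdx4 overlapped between states, with 1.63 and 1.41 TPM in ESC, 0.702 and 0.247 in EpiLC, 1.18 and 0.911 in PGCLC_d3 and 0.958 and 2.68 in PGCLC_d3ag3.

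**Figure D2:**
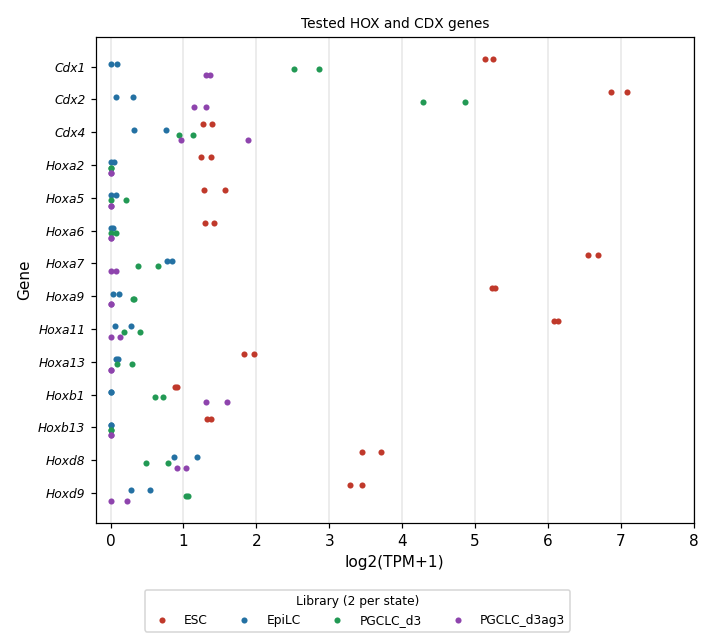
Levels in log2(TPM+1) on the horizontal axis of tested HOX and CDX genes, with 1 point per library coloured by state. ESC lies right of every other library for all genes shown but Cdx4 and Hoxb1, and Hoxa7, Hoxa11 and Hoxa9 lie far from their near-zero levels elsewhere.

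Some ESC-high genes were neighbours in the genome when only tested genes were counted. Gene order was read from the RefSeq annotation of GRCr8, which is not the build of the deposited table, so only adjacency among tested genes was used. Of 544 matched ESC-high genes with a gap of at least 1, 116 (21.3%) lay next to another such gene, while 8.5% of the 12471 matched tested genes did. For ESC-low genes it was 40 of 413 (9.7%) and 6.5%. The longest run lay in the HOXA cluster and held Hoxa2, Hoxa5, Hoxa6, Hoxa7, Hoxa9, Hoxa11 and Hoxa13. Genes too low to be tested, such as Hoxa3 and Hoxa4, were skipped, and these run members met the filter through their ESC values alone. The share of ESC-high genes with such a neighbour was therefore in part set by the filter and is a description only. Runs of 3 included Gdf3, Dppa3 and Nanog, a segment known to be active in pluripotent cells, as well as Apoc4, Apoc1 and Apoe, and Krt32, Krt36 and Krt19. Gdf3, a TGF-beta ligand, was at 589 and 641 TPM in ESC, 47.8 and 42.0 in EpiLC, 12.7 and 12.3 in PGCLC_d3 and 25.7 and 27.2 in PGCLC_d3ag3. Dppa3, a maternal factor that guards DNA methylation, was at 1312 and 1306 TPM in ESC, 38.7 and 26.8 in EpiLC, 375 and 389 in PGCLC_d3 and 467 and 509.9 in PGCLC_d3ag3. Dppa3 and Nanog were low in EpiLC and higher again in both PGCLC states, while Gdf3 was lower there than in EpiLC. Apoe, a lipid carrier, was at 2268 and 2361 TPM in ESC, 544 and 465 in EpiLC, 210.1 and 227 in PGCLC_d3 and 559.7 and 499 in PGCLC_d3ag3, and Krt36, a hair keratin, at 12.8 and 10.4 TPM in ESC and 0 to 0.036 elsewhere. The keratin and apolipoprotein genes were named after their values were seen. Dppa5 and Ooep were adjacent, as were Calcoco2 and Hoxb13, and Zfp57 and Gabbr1. Overlapping or adjacent genes can share reads where counting does not use strand, which was not tested.

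Promoters of the widely separated genes were compared by base content and by short motifs. The window runs from 250 bases before to 50 bases after the start, 300 in all, from RefSeq GRCr8. Promoters were found for 160 of the 214 ESC-high and 68 of the 97 ESC-low genes with a gap of at least 2, and for 10272 of the tested genes. The median number of CpG was 16 in ESC-high, 21 in ESC-low and 21 in all tested promoters, at a GC content of 60.8%, 63.3% and 61.0%. A set of 6 motifs were searched on both strands, and a match is a description only. The STAT motif TTCCNGGAA was in 3.1% of ESC-high, 2.9% of ESC-low and 1.2% of all tested promoters, the TCF/LEF motif ATCAAAG in 5.6%, 1.5% and 2.3%, and the ESRRB motif CAAGGTCA in 2.5%, 0.0% and 0.9%. In counts these were 5, 9 and 4 ESC-high and 2, 1 and 0 ESC-low promoters. The E-box CACGTG was in 10.0%, 10.3% and 9.5%, the KLF/SP motif GGGGCGGGG in 21.2%, 22.1% and 20.6%, and the E2F-like motif TTTCGCGC in 0.0%, 1.5% and 0.7%. The promoters below show a pair of genes from the HOXA run, a CDX gene with a TCF/LEF match, Zfp57 with an ESRRB match, the CpG-poor promoter of Dppa5, and Spry1 from the ESC-low side. Capitals mark a match to 1 of these motifs on either strand, and no printed matches overlap. The 6 sequences run 5′ to 3′ on the strand of the gene.
Hoxa7: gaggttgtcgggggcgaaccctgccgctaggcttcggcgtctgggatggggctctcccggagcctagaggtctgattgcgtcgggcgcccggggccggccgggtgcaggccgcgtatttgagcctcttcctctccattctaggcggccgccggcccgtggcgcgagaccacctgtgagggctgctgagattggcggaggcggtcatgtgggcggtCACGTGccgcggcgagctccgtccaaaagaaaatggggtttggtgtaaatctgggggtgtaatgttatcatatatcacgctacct
Hoxa9: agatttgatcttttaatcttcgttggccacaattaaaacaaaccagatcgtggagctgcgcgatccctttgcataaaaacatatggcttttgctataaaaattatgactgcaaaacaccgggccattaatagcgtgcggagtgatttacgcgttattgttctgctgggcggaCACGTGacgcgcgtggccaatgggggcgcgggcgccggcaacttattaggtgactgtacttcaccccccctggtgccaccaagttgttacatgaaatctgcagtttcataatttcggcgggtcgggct
Cdx1: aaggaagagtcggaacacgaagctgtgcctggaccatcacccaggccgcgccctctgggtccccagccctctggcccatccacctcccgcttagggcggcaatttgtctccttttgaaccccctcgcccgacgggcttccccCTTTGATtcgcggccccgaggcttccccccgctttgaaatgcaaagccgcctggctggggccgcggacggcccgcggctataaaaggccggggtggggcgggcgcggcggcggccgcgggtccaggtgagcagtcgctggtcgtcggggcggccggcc
Zfp57: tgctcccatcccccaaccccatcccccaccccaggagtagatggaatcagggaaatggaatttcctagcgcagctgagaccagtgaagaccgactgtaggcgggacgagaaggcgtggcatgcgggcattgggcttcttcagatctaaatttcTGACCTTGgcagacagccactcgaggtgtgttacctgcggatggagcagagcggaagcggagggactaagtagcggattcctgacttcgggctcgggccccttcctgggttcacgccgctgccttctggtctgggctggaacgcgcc
Dppa5: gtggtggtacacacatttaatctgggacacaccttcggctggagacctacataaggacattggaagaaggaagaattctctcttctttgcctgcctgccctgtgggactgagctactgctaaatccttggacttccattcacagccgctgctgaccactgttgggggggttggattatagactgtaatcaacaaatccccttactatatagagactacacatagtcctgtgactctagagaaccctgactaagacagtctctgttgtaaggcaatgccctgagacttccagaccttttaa
Spry1: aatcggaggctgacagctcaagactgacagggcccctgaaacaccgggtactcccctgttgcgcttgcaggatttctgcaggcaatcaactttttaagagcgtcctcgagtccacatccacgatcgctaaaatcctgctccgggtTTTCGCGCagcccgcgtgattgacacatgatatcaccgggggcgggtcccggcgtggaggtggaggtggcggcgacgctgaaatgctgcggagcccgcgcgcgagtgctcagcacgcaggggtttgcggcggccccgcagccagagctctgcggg
The printed windows held 29 CpG in Hoxa7, 21 in Hoxa9, 32 in Cdx1, 17 in Zfp57, 2 in Dppa5 and 29 in Spry1. Hoxa7 and Hoxa9 each hold 1 E-box, Cdx1 1 TCF/LEF match, Zfp57 1 ESRRB match and Spry1 1 E2F-like match, and Dppa5 holds none of the 6 motifs in this window.

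The MEK inhibitor is listed for ESC medium only, and its part in the levels below was not tested. EpiLC medium held bFGF, and PGCLC_d3 medium held EGF and SCF. Genes of FGF and ERK feedback are classical readouts of the ERK pathway. Of 21 tested, 8 were called lower in ESC and 3 higher, against 15.46% and 12.69% of all tested genes. The counts were the same after both rescalings. Their median difference was -1.06 from EpiLC, -1.04 from PGCLC_d3 and -0.60 from PGCLC_d3ag3. Dusp6, the phosphatase that acts on ERK, was at 4.31 and 3.7 TPM in ESC, 210.3 and 182 in EpiLC, 258 and 263 in PGCLC_d3 and 67.5 and 62.6 in PGCLC_d3ag3. Spry1, an inhibitor of receptor signalling, was at 1.05 and 1.11 TPM in ESC, 25.2 and 24.6 in EpiLC, 127 and 121 in PGCLC_d3 and 62.3 and 59.1 in PGCLC_d3ag3. Phlda1 was at 1.39 and 1.26 TPM in ESC, 121 and 138 in EpiLC, 267 and 259.7 in PGCLC_d3 and 18.4 and 18.1 in PGCLC_d3ag3. These 3 were separated by gaps of 3.00 to 3.61. Dusp4, a nuclear phosphatase, was at 1.18 and 1.4 TPM in ESC, 5.44 and 4.02 in EpiLC, 56.6 and 54.3 in PGCLC_d3 and 7.59 and 9.11 in PGCLC_d3ag3. Spred1, the ETS factor Etv1 and the AP-1 gene Fosl1 were called with smaller gaps of 0.40, 0.46 and 1.03. Egr1, an immediate early factor, was called lower too, but its ESC libraries were far apart, at 27.4 and 5.16 TPM in ESC, 72.6 and 77.1 in EpiLC, 75.6 and 96.9 in PGCLC_d3 and 186 and 203 in PGCLC_d3ag3.

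The remaining 3 ERK feedback calls were higher in ESC. Spry2 was at 119.6 and 114 TPM in ESC, 52.6 and 46.7 in EpiLC, 49.5 and 43.0 in PGCLC_d3 and 15.4 and 14.8 in PGCLC_d3ag3. Dusp5, a nuclear phosphatase of ERK, was at 10.7 and 9.35 TPM in ESC, 6.1 and 4.58 in EpiLC, 3.31 and 3.75 in PGCLC_d3 and 4.85 and 3.78 in PGCLC_d3ag3. Fgf4, the growth factor that signals through this pathway in the inner cell mass, was at 138 and 148 TPM in ESC, 85.4 and 70.7 in EpiLC, 0.119 and 0.241 in PGCLC_d3 and 0.867 and 0.132 in PGCLC_d3ag3, a call lost in 3 of 8 fits without 1 library (without either ESC replicate or EpiLC replicate 2, limma adjusted p of 0.000603 to 0.0989). A further 10 were not called, among them the ETS genes Etv4 (78.9 and 69.5 TPM in ESC, 3.25 and 3.16 in EpiLC, 128 and 122 in PGCLC_d3 and 26.6 and 30.3 in PGCLC_d3ag3) and Etv5 (199 and 210.4 TPM in ESC, 87.3 and 91.9 in EpiLC, 240.2 and 246 in PGCLC_d3 and 170.4 and 197 in PGCLC_d3ag3), whose ESC levels lay under those of PGCLC_d3 and over those of EpiLC. Spry4, Spred2, Il17rd, Fgfr1, Myc, Egr2, Fos and Ier3 overlapped with another state or lay between states. Fos was at 10.7 and 3.09 TPM in ESC, 7.07 and 8.75 in EpiLC, 65.2 and 69.6 in PGCLC_d3 and 264 and 262 in PGCLC_d3ag3, highest in PGCLC_d3ag3. Dusp9, which is not in this list, was at 0.277 and 0.0338 TPM in ESC, 14.8 and 18.0 in EpiLC, 146 and 162 in PGCLC_d3 and 33.1 and 25.9 in PGCLC_d3ag3.

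LIF was present in ESC and in PGCLC_d3 medium. Of 16 tested genes of its pathway, 6 were called higher in ESC (37.5%) and 3 lower (18.8%), where all tested genes gave 12.69% and 15.46%. The receptor Lifr was at 35.1 and 44.1 TPM in ESC, 3.69 and 3.83 in EpiLC, 1.08 and 1.14 in PGCLC_d3 and 2.6 and 3.69 in PGCLC_d3ag3. Its partner Il6st, which encodes gp130, was at 124 and 139 TPM in ESC, 15.7 and 15.8 in EpiLC, 41.1 and 42.4 in PGCLC_d3 and 29.9 and 32.1 in PGCLC_d3ag3. The kinase gene Jak2 was at 50.0 and 58.7 TPM in ESC, 6.22 and 6.38 in EpiLC, 14.8 and 14.5 in PGCLC_d3 and 35.8 and 26.3 in PGCLC_d3ag3. Stat3, the transcription factor, was at 112 and 113 TPM in ESC, 23.9 and 20.6 in EpiLC, 54.3 and 55.8 in PGCLC_d3 and 12.7 and 16.2 in PGCLC_d3ag3. Of the targets, Socs3, a feedback inhibitor, was at 180.3 and 192 TPM in ESC, 3.00 and 3.73 in EpiLC, 80.9 and 88.8 in PGCLC_d3 and 30.0 and 33.3 in PGCLC_d3ag3. Bcl3, an IκB-related coactivator, was at 136 and 158 TPM in ESC, 0.893 and 0.548 in EpiLC, 10.9 and 14.2 in PGCLC_d3 and 2.17 and 2.53 in PGCLC_d3ag3. The nearest state differed among the 6, being PGCLC_d3 for Il6st, Stat3, Socs3 and Bcl3, PGCLC_d3ag3 for Jak2 and EpiLC for Lifr. The part of LIF in the medium was not tested. Socs1, another feedback inhibitor, went the other way at 11.8 and 12.1 TPM in ESC, 84.0 and 86.7 in EpiLC, 262 and 261 in PGCLC_d3 and 158 and 175 in PGCLC_d3ag3, as did Jak1 at 13.0 and 13.9 TPM in ESC, 35.3 and 35.7 in EpiLC, 63.8 and 64.6 in PGCLC_d3 and 38.7 and 41.5 in PGCLC_d3ag3 and the kinase Pim3 at 44.7 and 44.4 TPM in ESC, 84.8 and 75.6 in EpiLC, 167 and 162 in PGCLC_d3 and 67.5 and 70.5 in PGCLC_d3ag3. Lif itself was at 0.313 and 0.565 TPM in ESC and 0.602 to 2.91 elsewhere and was not called, nor were Pim1, Socs2, Cish, Junb, Il6r and Ptpn11. Osmr was too low to be tested.

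The GSK3 inhibitor was likewise in ESC medium only, and its part was not tested. Of 19 tested WNT targets and feedback genes, 2 were called higher and 2 lower in ESC, 10.5% each, where all tested genes gave 12.69% and 15.46%. Axin2, the widely used target, was at 13.5 and 14.9 TPM in ESC, 2.78 and 2.07 in EpiLC, 5.73 and 5.5 in PGCLC_d3 and 3.25 and 4.15 in PGCLC_d3ag3, and the cyclin gene Ccnd1 at 275 and 306 TPM in ESC, 70.8 and 78.7 in EpiLC, 15.48 and 14.9 in PGCLC_d3 and 1.25 and 1.16 in PGCLC_d3ag3. The lower calls, Tcf7 at 5.4 and 5.35 TPM in ESC, 6.93 and 6.63 in EpiLC, 52.3 and 50.7 in PGCLC_d3 and 40.9 and 41.3 in PGCLC_d3ag3 and Apcdd1 at 0.805 and 0.896 TPM in ESC, 1.78 and 1.64 in EpiLC, 5.26 and 4.3 in PGCLC_d3 and 2.00 and 2.31 in PGCLC_d3ag3, were lost in 6 of 8 and 2 of 8 fits without 1 library (limma, adjusted p of 0.0321 to 0.126 and 0.0105 to 0.0668): for Tcf7 all but those without a PGCLC_d3ag3 replicate, for Apcdd1 those without ESC or EpiLC replicate 1. Apcdd1 was also lost after quantile normalization. The mesoderm gene Tbxt, a target in mouse stem cells, was at 3.09 and 3.6 TPM in ESC, 0.0468 and 0.164 in EpiLC, 64.0 and 52.0 in PGCLC_d3 and 2.94 and 5.21 in PGCLC_d3ag3. Sp5 was at 9.38 and 11.9 TPM in ESC, 0.0973 and 0.0374 in EpiLC, 13.7 and 12.4 in PGCLC_d3 and 1.09 and 2.52 in PGCLC_d3ag3. Notum (0.27 and 0.367 TPM in ESC, 0.0996 and 0.309 in EpiLC, 47.6 and 55.0 in PGCLC_d3 and 2.53 and 3.95 in PGCLC_d3ag3), Nkd1 (1.92 and 1.75 TPM in ESC, 0.805 and 1.16 in EpiLC, 65.1 and 58.1 in PGCLC_d3 and 18.9 and 21.0 in PGCLC_d3ag3) and Rnf43 were higher in PGCLC_d3 than in ESC, and Lef1, Tcf7l1, Sp8, Lgr5, Znrf3, Dkk1, Dkk4, Wif1, Tnfrsf19 and Kremen1 were not called either.

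**Figure D3:**
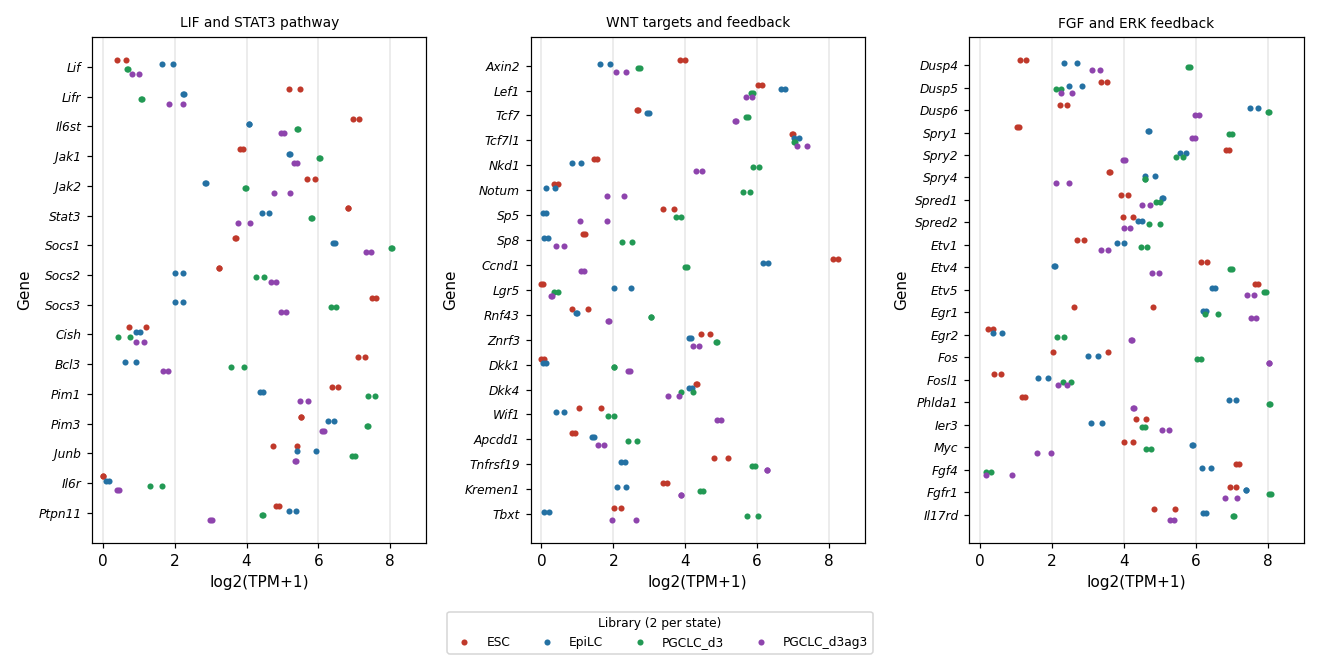
Levels in log2(TPM+1) on the horizontal axis of all tested genes of the LIF and STAT3, WNT, and FGF and ERK lists, with 1 point per library coloured by state. ESC points lie left of all others for Dusp6, Spry1 and Phlda1 and right of all others for Lifr, Bcl3 and Ccnd1. For most WNT genes the ESC points lie between those of other states or overlap with them.

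In the NODAL and activin pathway, 4 of 15 tested genes were called higher (26.7%) and 2 lower (13.3%), beside 12.69% and 15.46% of all tested genes. Without either ESC replicate 2 were called higher and 1 lower, and without EpiLC replicate 2, 1 was called lower. Lefty1, an inhibitor of NODAL, was at 700.4 and 816 TPM in ESC, 158 and 198 in EpiLC, 257 and 295 in PGCLC_d3 and 21.6 and 19.9 in PGCLC_d3ag3, and Gdf3 is given above. Nodal and its coreceptor Tdgf1 were called with gaps of 0.21 and 0.17, and these calls were lost in 4 of 8 and 3 of 8 fits without 1 library. These were the fits without either ESC or either PGCLC_d3 replicate for Nodal (limma, adjusted p of 0.0113 to 0.194), and without either ESC replicate or EpiLC replicate 2 for Tdgf1 (limma, adjusted p of 0.0155 to 0.152). Of 14 tested BMP targets, 3 were called lower (Id1, Id2 and Dlx3, 21.4%) and 0 higher. Id1, an inhibitor of helix-loop-helix factors, was at 3.42 and 2.33 TPM in ESC, 13.4 and 17.3 in EpiLC, 278 and 318 in PGCLC_d3 and 59.0 and 59.0 in PGCLC_d3ag3, highest in PGCLC_d3, the state kept in BMP4. The part of BMP4 was not tested.

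Among formative and primed epiblast genes, 5 of 17 tested were called lower in ESC (29.4%) and 4 higher (23.5%), against 15.46% and 12.69% of all tested genes. Otx2 (0.432 and 0.363 TPM in ESC, 74.6 and 73.9 in EpiLC, 1.54 and 1.18 in PGCLC_d3 and 8.2 and 7.42 in PGCLC_d3ag3), Pou3f1 (1.08 and 1.06 TPM in ESC, 210.4 and 218 in EpiLC, 26.9 and 26.7 in PGCLC_d3 and 4.22 and 4.88 in PGCLC_d3ag3) and Sox4 (2.21 and 3.09 TPM in ESC, 145 and 126 in EpiLC, 18.0 and 18.2 in PGCLC_d3 and 12.7 and 12.2 in PGCLC_d3ag3), transcription factors of the post-implantation epiblast or of neural cells, were lowest in ESC and highest in EpiLC. After quantile normalization the Otx2 call was lost. Sall2 and Lin28a were the other lower calls. The higher calls were Tcf15 (25.3 and 25.3 TPM in ESC, 7.62 and 6.47 in EpiLC, 8.55 and 8.93 in PGCLC_d3 and 3.04 and 4.53 in PGCLC_d3ag3), Zic2, Zic5 and Foxd3, and the last 3 had EpiLC as the nearest state. The Foxd3 call was lost with a pseudocount of 0.1. Zic5, a zinc finger factor, was at 52.5 and 51.8 TPM in ESC, 27.9 and 27.5 in EpiLC, 0.263 and 0.326 in PGCLC_d3 and 0.114 and 0.0837 in PGCLC_d3ag3.

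Of 16 tested early germ cell genes, 4 were called higher and 4 lower (25.0% each), against 12.69% and 15.46% of all tested genes. Besides Dppa3, the higher calls were Ifitm1 (2335 and 2273 TPM in ESC, 159.9 and 126 in EpiLC, 118 and 101 in PGCLC_d3 and 291 and 309 in PGCLC_d3ag3), Cd9, a tetraspanin (821 and 869.7 TPM in ESC, 89.3 to 280.5 elsewhere), and the alkaline phosphatase gene Alpl (273 and 311 and 9.61 to 187). Dnd1, an RNA-binding protein of germ cells, was lower at 3.71 and 3.87 TPM in ESC, 11.1 and 8.38 in EpiLC, 372 and 375 in PGCLC_d3 and 277 and 275 in PGCLC_d3ag3, as were Lmo2, Rhox9 and Nanos3. For Nanos3, whose reporter was used to sort both PGCLC states, the level was 0.385 and 0.338 TPM in ESC, 0.702 and 0.905 in EpiLC, 11.0 and 10.7 in PGCLC_d3 and 17.2 and 15.6 in PGCLC_d3ag3, and the call was lost in 6 of 8 fits without 1 library, all but those without a PGCLC_d3ag3 replicate (limma, adjusted p of 0.0312 to 0.213), and after quantile normalization. Of 25 gonadal germ cell and meiosis genes, 3 were called lower (Tex14, Smc1b and Brdt, 12.0%) and 0 higher.

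Genes of DNA methylation and demethylation were divided, with 5 of 20 tested called higher (25.0%) and 4 lower (20.0%), against 12.69% and 15.46% of all tested genes. Dnmt3l, the cofactor of the de novo enzymes, was at 1121 and 1039 TPM in ESC, 331 and 255 in EpiLC, 0.856 and 0.123 in PGCLC_d3 and 0.455 and 0.178 in PGCLC_d3ag3. Tet2, an enzyme that oxidises methylcytosine, was at 69.4 and 78.8 TPM in ESC, 0.753 and 0.974 in EpiLC, 10.3 and 10.9 in PGCLC_d3 and 9.06 and 10.2 in PGCLC_d3ag3, and Tet3 and Trim28, the partner of ZFP57, were higher as well. Dnmt3l fell steeply after EpiLC, whereas Tet2 was lowest in EpiLC. Ehmt2, a histone methyltransferase, was lower at 31.7 and 35.4 TPM in ESC, 66.7 and 64.1 in EpiLC, 148 and 138 in PGCLC_d3 and 63.9 and 70.4 in PGCLC_d3ag3, as were Hells, Tdg and Mbd4. The Mbd4 call was lost in 5 of 8 fits without 1 library, those without either ESC or either PGCLC_d3 replicate or EpiLC replicate 2 (limma, adjusted p of 0.0305 to 0.324), and after median-of-ratios rescaling. Polycomb and Trithorax genes gave 5 higher and 3 lower calls of 29 (17.2% and 10.3%), none with a gap of at least 1. Quantile normalization turned this balance to 3 higher and 4 lower, and without either ESC replicate or EpiLC replicate 1 there were 3 higher calls. Ezh1 had the widest, at 121 and 128 TPM in ESC, 55.6 and 60.3 in EpiLC, 52.6 and 53.1 in PGCLC_d3 and 41.7 and 44.2 in PGCLC_d3ag3. Imprinted genes gave 2 higher (9.1%) and 6 lower (27.3%) calls of 22. The lower calls were 4 after quantile normalization and 5 after median-of-ratios rescaling, with 2 higher in both. The higher calls were Plagl1 (13.6 and 16.2 TPM in ESC, 0.871 and 0.676 in EpiLC, 3.15 and 3.38 in PGCLC_d3 and 0.296 and 0.592 in PGCLC_d3ag3) and Nnat. Of the lower calls, Ndn was separated most at 4.64 and 6.13 TPM in ESC, 14.7 and 14.3 in EpiLC, 39.5 and 42.8 in PGCLC_d3 and 35.6 and 31.9 in PGCLC_d3ag3.

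Genes that mark other lineages appeared on both sides. Among those called higher, Tfap2a, Hnf4a, Lama1, Wnt3a and Sox1 were under 1 TPM in every library but those of ESC. They met the filter for a test through their ESC values alone. The shares called higher in their lists were therefore in part set by the filter and are a description only. Of 16 tested trophoblast and amnion genes, 5 were called higher (31.2%) and 4 lower (25.0%), against 12.69% and 15.46% of all tested genes. Krt19, a keratin, was at 332 and 299 TPM in ESC, 1.34 and 0.753 in EpiLC, 25.1 and 21.1 in PGCLC_d3 and 8.24 and 9.16 in PGCLC_d3ag3. Tfap2a was at 7.59 and 6.21 TPM in ESC, 0.0302 and 0 in EpiLC, 0.267 and 0.277 in PGCLC_d3 and 0 and 0.0147 in PGCLC_d3ag3, while Krt7 and Fgfr2 were low in ESC, at 0.057 and 0.0417 and 0.408 and 0.199 TPM against 1.15 to 4.93 and 2.15 to 61.0 elsewhere. The part of trophoblast-like cells in these levels was not tested. Elf5, Hand1 and Gcm1 were listed at 0 in ESC, as given above. Hnf4a, a nuclear receptor of endoderm, was at 13.1 and 12.4 TPM in ESC, 0 and 0 in EpiLC, 0.077 and 0.0666 in PGCLC_d3 and 0 and 0 in PGCLC_d3ag3, and with Lama1 and Lamb1 made 3 of 14 endoderm genes called higher (21.4%), although the 5 endoderm markers summed to under 1.5 TPM in ESC. Wnt3a was at 10.1 and 12.2 TPM in ESC, 0.166 and 0.0512 in EpiLC, 0.468 and 0.541 in PGCLC_d3 and 0.106 and 0.0324 in PGCLC_d3ag3, 1 of 2 streak genes of 15 called higher (13.3%). Of 8 tested neural genes, 4 were called higher (50.0%), among them Sox1 (5.00 and 5.09 TPM in ESC, 0.576 and 0.149 in EpiLC, 0 and 0 in PGCLC_d3 and 0 and 0 in PGCLC_d3ag3) and Tubb3, and 2 lower, Nes (0.233 and 0.472 TPM in ESC, 4.27 and 4.4 in EpiLC, 24.6 and 27.6 in PGCLC_d3 and 14.1 and 12.8 in PGCLC_d3ag3) and Sox11. Tie1, an endothelial receptor, was at 55.5 and 53.2 TPM in ESC, 1.25 and 0.802 in EpiLC, 0.211 and 0.243 in PGCLC_d3 and 0.426 and 0.337 in PGCLC_d3ag3. Cldn5, of tight junctions, was at 154 and 160.1 TPM in ESC, 0.145 and 0.224 in EpiLC, 9.18 and 8.69 in PGCLC_d3 and 45.7 and 37.7 in PGCLC_d3ag3. These were 2 of 3 higher calls among 11 endothelial and blood genes (27.3%). Of 17 fibroblast genes, Fn1 (630.2 and 869 TPM in ESC, 211 and 199.9 in EpiLC, 62.2 and 61.1 in PGCLC_d3 and 34.5 and 36.5 in PGCLC_d3ag3) and Pdgfrb were called higher (11.8%, near the share of all tested genes). Mouse feeders were present only in the ESC culture. How reads of mouse cells were assigned to rat genes, and their part in these levels, was not tested.

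Metabolic and cell cycle lists held few wide gaps. Of 23 glycolysis genes, 5 were called higher (21.7%) and 2 lower (8.7%), against 12.69% and 15.46% of all tested genes, and the 5 included the hexokinases Hk1 (114 and 130.1 TPM in ESC, 54.1 and 54.1 in EpiLC, 13.9 and 15.8 in PGCLC_d3 and 28.3 and 30.3 in PGCLC_d3ag3) and Hk2 and the pyruvate kinase gene Pkm (1992 and 1935 TPM in ESC, 924 and 929 in EpiLC, 491 and 499 in PGCLC_d3 and 461 and 466 in PGCLC_d3ag3). All 5 had EpiLC as their nearest state. Median-of-ratios rescaling gave 7 higher and 2 lower, and 1 was lower without ESC replicate 1 or PGCLC_d3ag3 replicate 2. Cholesterol synthesis had 5 of 23 higher (21.7%) and 0 lower, with Dhcr7 (130.0 and 123 TPM in ESC, 47.2 and 50.7 in EpiLC, 35.6 and 33.6 in PGCLC_d3 and 68.7 and 70.4 in PGCLC_d3ag3) separated most, at a gap of 0.79. Oxidative phosphorylation gave 6 higher (20.0%) and 3 lower (10.0%) of 30, with gaps no wider than 0.39. Of 27 cell cycle genes, 4 were called higher (14.8%, near the share of all tested genes) and 7 lower (25.9%), with 4 lower without ESC replicate 2 or EpiLC replicate 2. Besides Ccnd1, Cdk6 stood out at 0.074 and 0.0541 TPM in ESC, 7.35 and 6.28 in EpiLC, 2.83 and 2.87 in PGCLC_d3 and 3.75 and 4.26 in PGCLC_d3ag3, and E2f1 was at 6.17 and 6.26 TPM in ESC and 11.2 to 20.4 elsewhere. Btg2, a p53 target that slows division, was at 0.714 and 0.661 TPM in ESC, 7.52 and 8.47 in EpiLC, 102 and 101 in PGCLC_d3 and 48.4 and 51.8 in PGCLC_d3ag3, 1 of 2 lower calls among 17 p53 targets (11.8%), with 1 higher (5.9%). The lower calls were 1 without EpiLC replicate 1, and the higher ones 2 without ESC replicate 1 and 0 without ESC replicate 2 or either EpiLC replicate. Of 24 cytosolic ribosomal protein genes, 3 were called lower (12.5%, near the 15.46% of all tested genes) and 0 higher, with 0 lower after median-of-ratios rescaling and 5 after quantile normalization. There were 6 lower calls without ESC replicate 1, and 0 without ESC replicate 2 or either EpiLC replicate.

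Antigen presentation, stress and adhesion genes completed the lists. B2m, the light chain of class I molecules, was at 201 and 212 TPM in ESC, 37.9 and 29.0 in EpiLC, 86.7 and 81.0 in PGCLC_d3 and 16.8 and 14.9 in PGCLC_d3ag3. For the class I gene RT1-CE1, likewise of a family with similar copies, values were 26.1 and 22.6 TPM in ESC, 0.333 and 0.56 in EpiLC, 6.86 and 7.03 in PGCLC_d3 and 3.48 and 2.93 in PGCLC_d3ag3. Tap2 was called lower at 0.247 and 0.433 TPM in ESC, 1.91 and 2.01 in EpiLC, 106 and 99.9 in PGCLC_d3 and 17.4 and 17.3 in PGCLC_d3ag3, and 2 of 15 were called in each direction (13.3%, near the 12.69% and 15.46% of all tested genes). Without ESC replicate 2 or PGCLC_d3 replicate 1, 1 was lower. Of 19 immediate early and stress genes, 5 were called higher (26.3%) and 3 lower (15.8%), with 5 lower without ESC replicate 1. Atf3 was at 38.3 and 25.6 TPM in ESC, 1.4 and 3.31 in EpiLC, 3.39 and 4.18 in PGCLC_d3 and 0.945 and 0.864 in PGCLC_d3ag3. Dusp1, a phosphatase, was at 1.5 and 1.19 TPM in ESC, 2.69 and 3.51 in EpiLC, 33.3 and 35.0 in PGCLC_d3 and 28.3 and 23.4 in PGCLC_d3ag3. Cell handling before lysis differed between states, and its part was not tested. Of 23 adhesion genes, 2 were called higher (Cldn5 and Icam1, 8.7%) and 5 lower (21.7%). P-cadherin, Cdh3, was at 0.0666 and 0.0733 TPM in ESC, 1.49 and 1.56 in EpiLC, 99.6 and 104 in PGCLC_d3 and 70.0 and 71.5 in PGCLC_d3ag3. Of 11 gonadal somatic genes, 1 was higher (9.1%) and 2 were lower (18.2%). Each count of 0 given for a list on the deposited scale was also 0 at an unadjusted limma p under 0.05.

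**Figure D4:**
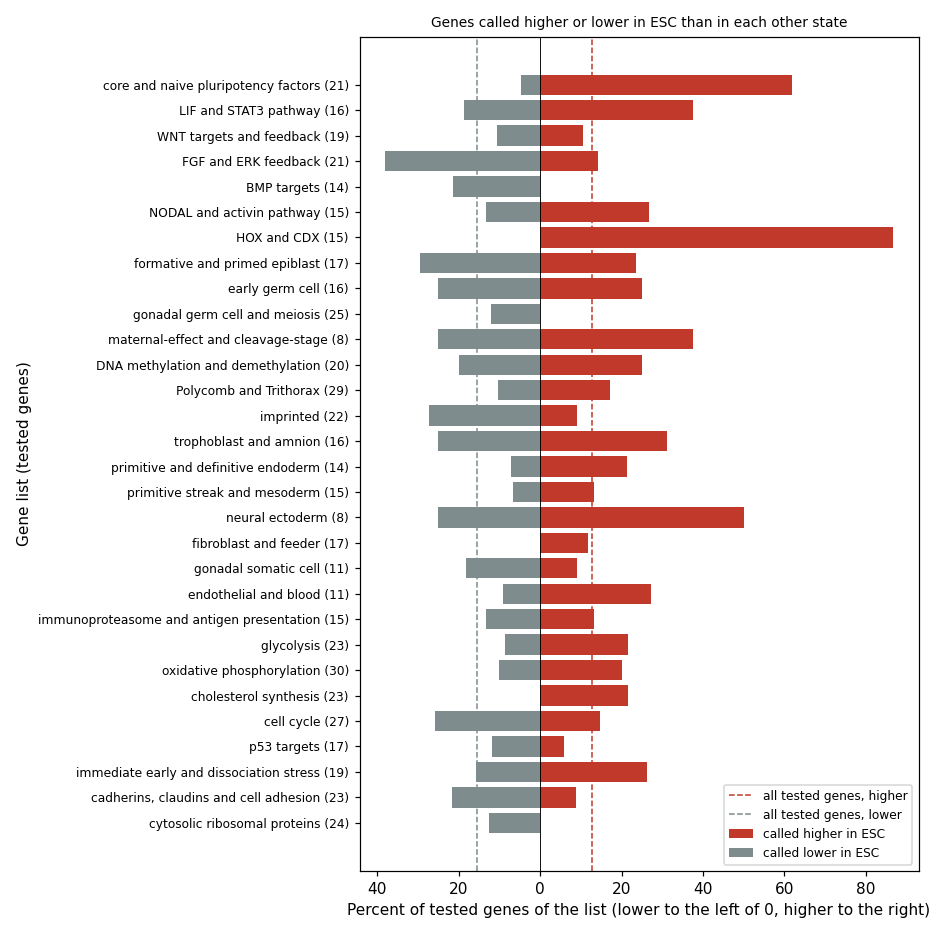
Percent of the tested genes of each of the 30 lists called higher (right of 0) or lower (left of 0) in ESC than in each of the 3 other states, with the number tested in brackets and dashed lines at the values of all tested genes, 12.69% and 15.46%. HOX and CDX genes (86.7% higher) and core and naive pluripotency factors (61.9% higher) reach farthest to the right and FGF and ERK feedback genes (38.1% lower) farthest to the left, and the ribosomal bar disappears after median-of-ratios rescaling. Many of the HOX genes and some genes of other lists met the filter for a test through their ESC values alone.

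The ESC-specific genes were also compared among the 3 other states, whose levels the rule uses through its limit on all 6 libraries, so these counts are a description. From EpiLC to PGCLC_d3, limma called 155 of the 586 ESC-high genes with a gap of at least 1 higher (26.5%) and 229 lower (39.1%), where all tested genes gave 47.3% and 27.6%. Their median difference was -0.12, against 0.21 for all. From PGCLC_d3 to PGCLC_d3ag3, 137 were higher (23.4%) and 188 lower (32.1%), against 25.7% and 44.8% of all, with a median of -0.06 against -0.18. The 432 ESC-low genes ran the other way at the first step, with 255 higher in PGCLC_d3 than in EpiLC (59.0%) and 98 lower (22.7%), and a median of 0.53. At the second step 80 were higher (18.5%) and 252 lower (58.3%), with a median of -0.51. Both steps share the PGCLC_d3 libraries. The counts depended on the scaling. After median-of-ratios rescaling all tested genes gave 36.3% higher and 37.5% lower at the first step and 35.2% each way at the second. The ESC-high genes then gave 20.6% higher and 46.1% lower at the first step and 29.0% and 26.1% at the second, where their balance turned. The ESC-low genes gave 49.3% and 30.6% at the first step and 23.8% and 49.8% at the second.

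The nearest library to ESC belonged to EpiLC for 262 of the 586 ESC-high genes (44.7%), to PGCLC_d3 for 171 (29.2%) and to PGCLC_d3ag3 for 150 (25.6%), with 3 ties. Of the 432 ESC-low genes it belonged to EpiLC for 210 (48.6%), to PGCLC_d3ag3 for 166 (38.4%) and to PGCLC_d3 for 55 (12.7%), with 1 tie. These shares were counted on the deposited scale only, with no share over all tested genes beside them. On that scale the median of all genes was -0.251 for ESC minus PGCLC_d3, -0.038 for ESC minus EpiLC and -0.089 for ESC minus PGCLC_d3ag3. The part of this shift in the shares was not tested. Nanog, Esrrb and Dppa3 illustrate ESC-high genes nearest to a PGCLC state, and Zfp42, Gdf3 and Dnmt3l those nearest to EpiLC.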

How the data were processed

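Expression of rat ESC, EpiLC, PGCLC_d3 and PGCLC_d3ag3 was measured by RNA sequencing, and titles gave group and replicate. The PicoPure kit served for RNA, and SMART-Seq v4 and KAPA Hyper Prep kits for libraries, per the labels. Tools named in the submitters' processing notes are bcl2fastq 2.20, cutadapt 1.1.6, HISAT2 2.1.0 and featureCounts of Subread 1.6.5, with the rat build rn7. Whether counting used strand is not given in the sources used here. The deposited values, made by the authors, are log2(TPM+1) per gene. Levels are printed as TPM, computed back from them, and differences are on the log2(TPM+1) scale, which understates changes of low genes. Of the rows, 11066 without a gene name were left out.

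TPM keeps no read totals. Steps between low values put the depths, relative to ESC replicate 1, between 1 and 2.38. In the PGCLC_d3ag3 libraries 70.9% and 64.9% of these steps fell midway between whole steps, against 6.5% to 11.4% elsewhere. Their depths of 2.17 and 2.38 rest on taking such a midway step as 1 read, which was not tested. Pearson correlations between the replicates of a state were 0.9946 to 0.9975 across tested genes, which are not independent.

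All 4 groups were fitted together with limma 3.58.1 in R 4.3.3 (lmFit, eBayes with trend, 2-sided, 4 residual degrees of freedom), with Benjamini-Hochberg adjustment at 0.05. The fit was first tested on simulated data with known changes. Members and lists were chosen with earlier results of these data known. The 30 lists named 666 genes, of which 648 were in the table. Named genes are the 20 widest gaps in each direction without clone-style symbols, members of the pluripotency, LIF, WNT and ERK lists, and the called members of the other lists with the 4 widest gaps each way, of which a part is printed. Some genes counted in the lists are not reported here. Genes outside this rule are marked as chosen after their values were seen. Alternatives covered the pseudocount, the filter, the scaling, 1 contrast against the mean of the other states, the replicate number as a block, and leaving out each library.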

Additional observations from a re-analysis of the deposited data

How the results depend on the processing

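Counts of called and of separated genes stayed within 1.5 times of the values given above under most settings. Setting ESC against the mean of the other 3 states in 1 contrast, a looser question by construction, called 4125 genes higher and 6397 lower. With a pseudocount of 0.1 in place of 1, 793 ESC-low and 702 ESC-high genes had a gap of at least 1, where 432 and 586 had it before, so the order of the 2 sides turned. Leaving out 1 library at a time gave 1406 to 1769 higher and 1646 to 2167 lower calls against each state. It gave 2434 to 2864 ESC-high and 3318 to 3918 ESC-low tested genes, and 595 to 683 and 433 to 516 at a gap of at least 1, where fewer libraries can only widen a gap. After median-of-ratios rescaling the smallest of the 3 differences turned from lower to higher, without a call, for Mcts2 (0.062), Plk1 (0.028) and Rpl5 (0.007); the cause was not tested. Of 179 list genes called, 139 kept their call in every setting and 40 lost it in at least 1. Same-numbered libraries did not deviate together, with correlations of -0.037 to 0.066 between groups, so the numbers do not pair the samples, and the fit with the replicate number as a block gave 1721 higher and 2085 lower calls. The number of libraries, 2 per state, limits the precision, and read totals are unknown.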

Other observations

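Families chosen after their values were seen gave further ESC-specific genes. Of 20 tested genes of dual-specificity phosphatases (DUSP), which remove phosphate from MAP kinases and other proteins, 8 were called higher in ESC and 5 lower by limma, beside 12.69% and 15.46% of all tested genes. Next to Dusp26, the higher calls with a gap of at least 1 were Dusp22 at 56.6 and 59.3 TPM in ESC, 5.62 and 6.17 in EpiLC, 9.84 and 9.43 in PGCLC_d3 and 7.84 and 9.96 in PGCLC_d3ag3, Dusp10, a phosphatase of stress kinases, at 20.2 and 22.3 TPM in ESC, 5.42 and 5.5 in EpiLC, 1.94 and 1.94 in PGCLC_d3 and 3.98 and 3.92 in PGCLC_d3ag3, and Dusp28 at 7.72 and 7.55 TPM in ESC, 2.63 and 1.79 in EpiLC, 2.79 and 2.55 in PGCLC_d3 and 3.24 and 2.83 in PGCLC_d3ag3. Those with a gap of at least 1 on the low side were Dusp4, Dusp6 and Dusp9. Thus both directions were present within 1 family. The calls of Dusp11, Dusp3 and Dusp7 were lost in 2 of 8, 3 of 8 and 5 of 8 fits that left out 1 library (limma, adjusted p of 0.00599 to 0.0898, 0.0216 to 0.279 and 0.0277 to 0.272).

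Of 15 tested KLF genes, zinc finger factors, 6 were called higher and 1 lower, beside 12.69% and 15.46% of all tested genes. Beside Klf2 and Klf4, Klf3 had a gap of at least 1, at 61.4 and 58.3 TPM in ESC, 22.0 and 20.2 in EpiLC, 23.1 and 24.9 in PGCLC_d3 and 11.6 and 14.3 in PGCLC_d3ag3. Klf17, an embryonic member of the family, was at 7.9 and 7.19 TPM in ESC, 1.59 and 1.37 in EpiLC, 0.153 and 0.071 in PGCLC_d3 and 4.42 and 4.19 in PGCLC_d3ag3. Klf15 was called lower at 0.0353 and 0.282 TPM in ESC, 3.62 and 3.16 in EpiLC, 13.2 and 12.3 in PGCLC_d3 and 0.646 and 1.43 in PGCLC_d3ag3, a call lost in 2 of 8 fits without 1 library, those without ESC replicate 1 or PGCLC_d3ag3 replicate 2 (limma, adjusted p of 0.00164 to 0.0992). Of 248 tested ZFP-numbered genes, 21 were called higher (8.5%) and 45 lower (18.1%), beside 12.69% and 15.46% of all tested genes. Solute carriers gave 51 higher (21.8%) and 30 lower (12.8%) of 234.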
